A study of Mus musculus with 19 samples.

Results

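The respiratory chain of the inner mitochondrial membrane was examined at the level of its nuclear transcripts in hippocampal microglia of mice. The genes were every row of the deposited expression tables whose symbol begins with Nduf followed by a, b, c, s or v and a digit, is one of Sdha to Sdhd, or begins with Uqcr, with Cox and a digit from 4 to 8, or with Atp5. This rule found 84 of the 23951 genes listed: 36 of complex I, 4 of complex II, 8 of complex III, 19 of complex IV (with Ndufa4, now counted to that complex) and 17 of complex V. Not every row found by the rule is a structural subunit. Cox7a2l helps to join complexes into supercomplexes, and Atp5s and Atp5sl are listed under the current symbols Dmac2l and Dmac2.

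Complexes I and II pass electrons from NADH and succinate to ubiquinone, complex III passes them on to cytochrome c, and complex IV passes them to oxygen. Complexes I, III and IV pump protons as they do so, and complex V, the ATP synthase, uses the gradient to make ATP. A few core subunits carry the redox centres or the catalytic sites, while many small accessory subunits surround them, some of which exist in tissue-specific forms. Microglia, the resident macrophages of the brain, are known to shift between oxidative phosphorylation and glycolysis when they are activated.

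RNA was sequenced from microglia sorted by CD11b and CD45, in 5 groups of 3 libraries. At 3 months of age, mice with floxed PU.1 alleles and 1 copy of Cx3cr1CreER, a tamoxifen-inducible Cre under the promoter of a gene of microglia and other myeloid cells, were compared with mice that carried Cx3cr1CreER alone. PU.1, encoded by Spi1, is the transcription factor that governs myeloid identity. Both groups received tamoxifen at 50 mg/kg for 5 days, and tissue was taken 1 week after. At 4.5 months the groups were CK-p25 with the conditional PU.1 knockout (CK-p25 PU.1 cKO), CK-p25 without floxed PU.1, and CK. In CK-p25 mice, expression of p25, an activator of Cdk5, is switched on in forebrain neurons, which then degenerate, and CK mice are their controls. All 3 groups carried Cx3cr1CreER and received the same tamoxifen course when p25 was induced, 6 weeks before collection. Nothing in the labels says whether each library is its own animal. The p-values therefore measure only the spread between these samples, and part of it may be technical.

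For the 3-month libraries the labels contradict each other. Titles, genotypes and descriptions were followed, and groups are named with the word labelled. Each description ties a library to a column whose name reads like the other group, and the source names tie groups to columns the opposite way. That second reading turns the sign of every 3-month difference given here. Spi1 itself went against the titles, at 409, 338 and 337 FPKM (fragments mapped to a gene, scaled by transcript length and by library size) in labelled PU.1 cKO and 261, 105 and 248 FPKM in labelled control. In the later set, the level of Spi1 was 165, 152 and 224 FPKM for CK-p25 PU.1 cKO, 251, 208 and 298 FPKM for CK-p25, and 256, 230 and 251 FPKM for CK. The CK-p25 PU.1 cKO and CK-p25 libraries overlapped for this gene, and FPKM over the whole gene does not tell whether the floxed part was lost.

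The number of reads is unknown. Libraries held 449784 to 622613 FPKM in all at 3 months, and 475007 to 650063 FPKM at 4.5 months. CK-p25 replicate 3, the only 4.5-month library whose sequence file name carries another prefix, stood apart. Some results that rest on it are also given without it. The 9 microglial markers checked, among them P2ry12 and Tmem119, were detected in every group and summed to between 8264 and 32787 FPKM per library. In bulk RNA, fewer cells of a type and less RNA per cell cannot be told apart. Subunits encoded in mitochondrial DNA are not analysed here.

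Of the 84 genes, 78 reached a mean of 1 FPKM at 3 months and 79 at 4.5 months and were tested. The others were tissue-restricted forms. Cox7b2 and Cox8c were listed at 0 in every library, and Ndufa4l2, Cox4i2 and Cox8b averaged 0.0256, 0.161 and 0.342 FPKM at 3 months. Cox6b2 passed at 4.5 months alone, with a mean of 2.25 FPKM over the 9 libraries. For complex IV, the ubiquitous forms thus carried nearly all of the signal: Cox4i1 made up between 99.9% and 100% of the Cox4i1 and Cox4i2 total, and Cox8a at least 99.2% of the Cox8a and Cox8b total in each of the 15 libraries. The exception was Cox6a2, whose share is given with complex IV.

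Promoters were read for 66 of the 84 genes, as the 250 bases before the annotated start (RefSeq, GRCm38.p6). The letters GCGCANGCG, most of the core of the site bound by NRF1, a transcription factor known for driving nuclear genes of mitochondrial proteins, stood on either strand in 15 of the 71 windows of these genes (21.1%) and in 5.16% of the 32851 windows of all genes. The letters CCGGAAG, a core bound by ETS factors such as GABPA, stood in 12 of the 71 (16.9%) and in 6.91% of all windows. GAGGAAGT, a form of the PU.1 site, stood in 3 of the 71 (4.23%) and in 2.44% of all windows, and AAGATGGCG, part of a YY1 site, in 1 of the 71 (1.41%) and in 0.606% of all windows. The NRF1 letters overlap their own reverse complement where both strands match, and no other matches overlap in the sequences shown. Of the 4 windows shown, those of Uqcrh, Atp5k and Ndufa1 belong to genes with some of the largest differences in 1 or both sets, and that of Cox6a1 to the ubiquitous paralog of Cox6a2. Each is given 5′ to 3′ on the minus strand, with NRF1 and ETS matches in capitals: Cox6a1 at chr5:115348959-115349208 with NRF1 letters in 2 places and 1 ETS match, Uqcrh at chr4:116075071-116075320 with 1 ETS match, Atp5k at chr5:108434400-108434649 with NRF1 letters in 1 place, and Ndufa1 at chrX:37191239-37191488 with no match. Matches are letters, not sites shown to be bound.
Cox6a1: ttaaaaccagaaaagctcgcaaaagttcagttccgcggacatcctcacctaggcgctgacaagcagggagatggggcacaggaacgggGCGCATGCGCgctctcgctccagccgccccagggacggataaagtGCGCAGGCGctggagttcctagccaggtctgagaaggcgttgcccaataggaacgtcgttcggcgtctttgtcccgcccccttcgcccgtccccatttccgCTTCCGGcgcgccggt
Uqcrh: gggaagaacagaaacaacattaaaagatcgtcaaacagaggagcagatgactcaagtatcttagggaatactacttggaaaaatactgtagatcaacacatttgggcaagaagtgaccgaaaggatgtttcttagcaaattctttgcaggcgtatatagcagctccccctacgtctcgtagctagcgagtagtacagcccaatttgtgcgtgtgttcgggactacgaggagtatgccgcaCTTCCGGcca
Atp5k: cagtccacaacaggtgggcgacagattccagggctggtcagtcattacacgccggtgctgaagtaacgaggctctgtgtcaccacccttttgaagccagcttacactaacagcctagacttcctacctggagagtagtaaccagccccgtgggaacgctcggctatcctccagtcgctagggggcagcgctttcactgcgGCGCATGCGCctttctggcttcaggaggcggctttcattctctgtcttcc
Ndufa1: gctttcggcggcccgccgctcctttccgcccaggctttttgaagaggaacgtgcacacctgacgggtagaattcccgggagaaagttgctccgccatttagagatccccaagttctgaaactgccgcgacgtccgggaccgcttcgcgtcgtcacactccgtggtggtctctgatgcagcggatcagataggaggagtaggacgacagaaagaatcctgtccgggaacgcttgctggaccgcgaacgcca

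In the 3-month set, transcripts of the respiratory chain were lower in the libraries labelled PU.1 cKO than in those labelled control. All 84 genes together summed to 5856, 5256 and 5831 FPKM in labelled PU.1 cKO and to 11481, 9473 and 17724 FPKM in labelled control. The groups did not overlap, and labelled control replicate 3 stood well above the others. Of the 78 genes tested, 55 fell, 1 rose and 22 did not pass (limma on log2(FPKM + 1), Benjamini-Hochberg adjusted p below 0.05 over all 10845 genes tested). Against these 70.5% lower, 17.8% of all genes tested were called lower and 12.4% higher. Groups did not overlap for 68 of the 78 genes downward and 1 upward, where 26.9% and 21.9% of all genes did so. The median log2 difference was -1.20 over the 78 genes and -0.03 over all genes tested. Of all calls, 41.1% were higher, a share that moved to 53% after quantile normalization and to 31.7% on the TPM scale, where 59 and 72 genes of the chain were called lower.

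**Figure D1:**
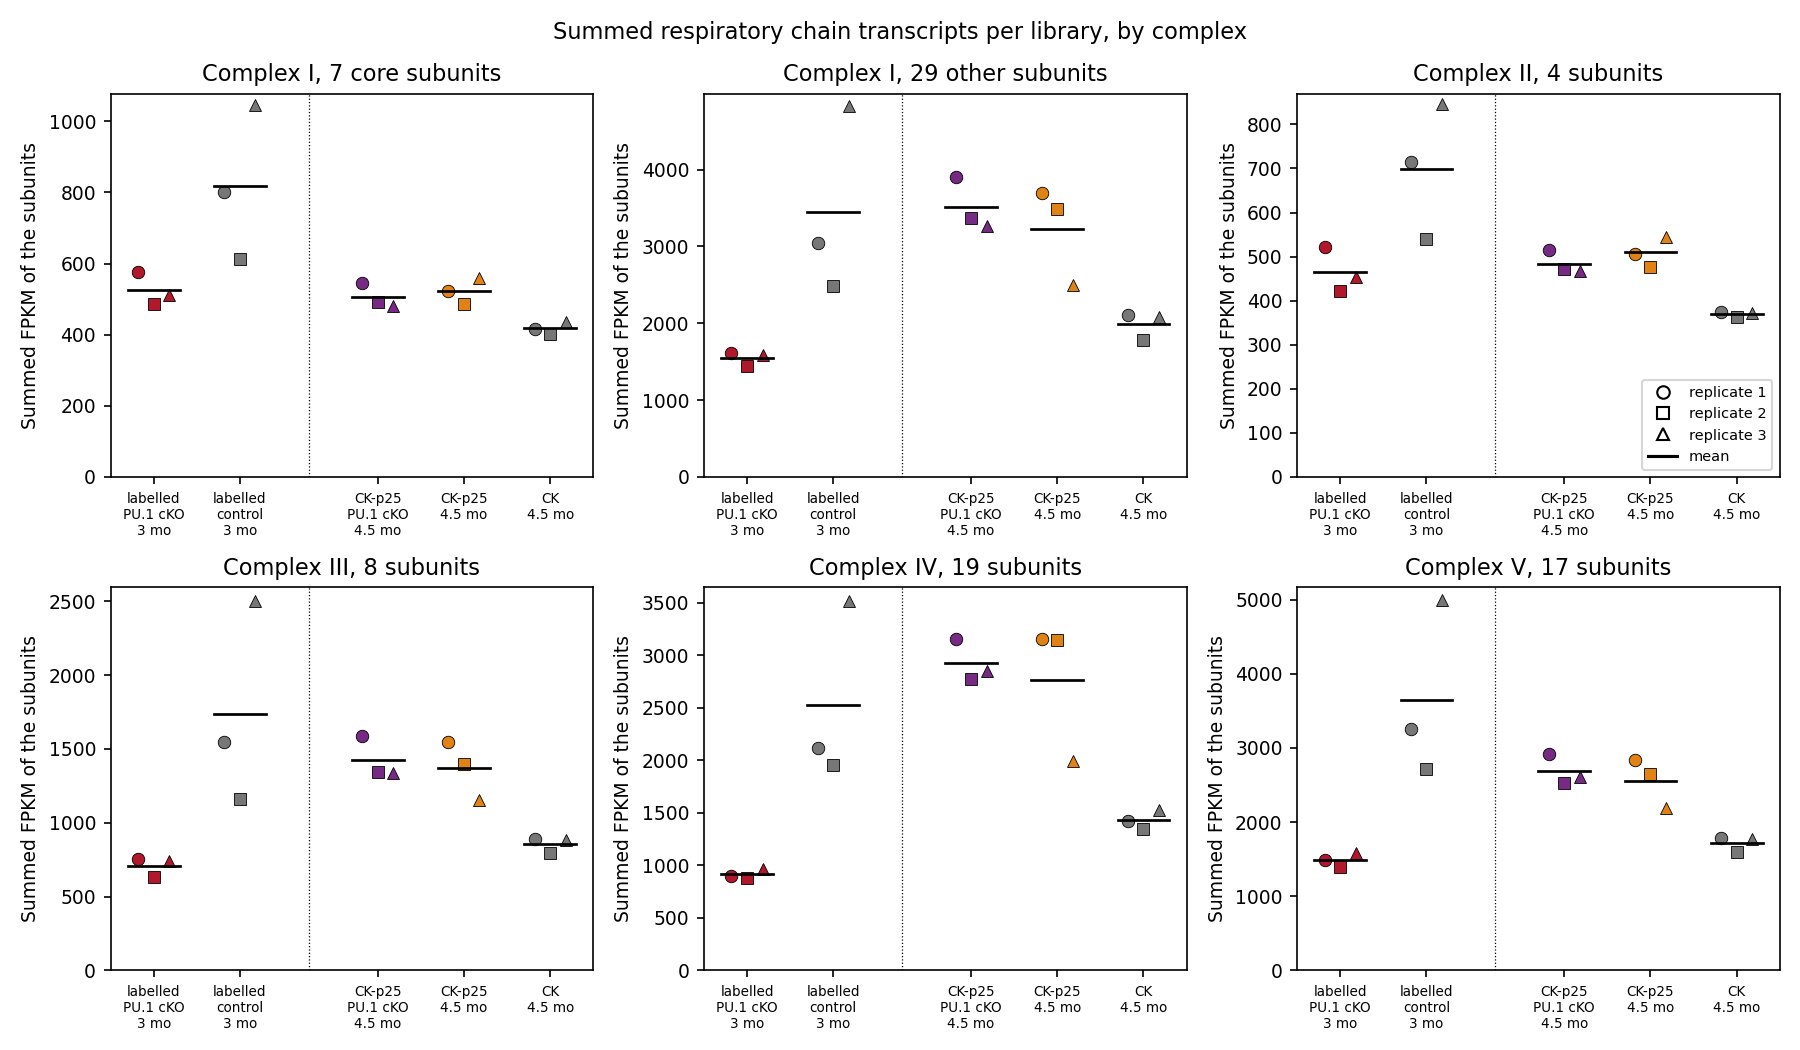
Summed FPKM of the subunits of each complex (y axis, linear, from 0) in each library; colours mark groups, symbols replicates and bars the mean of 3 libraries, and the dotted line parts the 2 sets, whose levels were normalized separately. Complex IV summed to between 878 and 963 FPKM in labelled PU.1 cKO against 1954 to 3518 FPKM in labelled control, and to between 1992 and 3156 FPKM in CK-p25 against 1350 to 1524 FPKM in CK.

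Within complex I, 22 of 35 genes tested fell at 3 months. Its 7 core subunits, among them the holders of the flavin and the iron-sulfur clusters, had log2 differences from -0.73 (Ndufv1 and Ndufv2) to -0.49 (Ndufs8), with a median of -0.62. Ndufv1, which binds NADH and the flavin, measured 48.2, 41.8 and 42.2 FPKM in labelled PU.1 cKO and 67.5, 55.5 and 106 FPKM in labelled control (-0.73 ± 0.25, SE, limma adjusted p = 0.0625). Ndufv2, its iron-sulfur partner, measured 40.3, 33.4 and 40.6 FPKM in labelled PU.1 cKO and 59.6, 48.4 and 88.4 FPKM in labelled control (-0.73 ± 0.24, adjusted p = 0.0579). Ndufs1, the largest subunit of the matrix arm, measured 51.2, 32.0 and 35 FPKM in labelled PU.1 cKO and 62.3, 42.7 and 62.3 FPKM in labelled control (-0.50 ± 0.24, adjusted p = 0.157). Labelled PU.1 cKO lay below labelled control for Ndufv1 and Ndufv2 and overlapped it for Ndufs1. Ndufs3 measured 75.7, 65.4 and 65.1 FPKM in labelled PU.1 cKO and 98.3, 87.0 and 131 FPKM in labelled control (-0.59 ± 0.20, adjusted p = 0.0592). Ndufs7 measured 114, 99.5 and 98.6 FPKM in labelled PU.1 cKO and 163, 120 and 207 FPKM in labelled control (-0.62 ± 0.23, adjusted p = 0.0774). Ndufs8, another iron-sulfur subunit, measured 154, 128 and 138 FPKM in labelled PU.1 cKO and 192, 142 and 282 FPKM in labelled control (-0.49 ± 0.26, adjusted p = 0.189). Ndufs3 and Ndufs7 separated the groups without passing, and Ndufs8 overlapped.

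Of the other subunits of complex I, 21 of 28 tested fell at 3 months, with a median difference of -1.13. Ndufc1, a small membrane subunit chosen for its values as the lowest of complex I, measured 34.8, 27.5 and 32.0 FPKM in labelled PU.1 cKO and 87.2, 70.4 and 167 FPKM in labelled control, a log2 difference of -1.66 ± 0.32 (limma adjusted p = 0.00883). Ndufa12, Ndufb11 and Ndufb2 fell by 1.65, 1.53 and 1.49 on the log2 scale. Ndufs5 could not be read this way. It measured 6.83, 16.7 and 0.000718 FPKM in labelled PU.1 cKO and 6.64, 15.3 and 26.4 FPKM in labelled control, and the groups overlapped. The gap between the medians of core and other subunits was not tested.

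None of the 4 subunits of complex II, succinate dehydrogenase, passed at 3 months. Without labelled control replicate 2, however, 3 of the 4 were called lower, Sdhb (adjusted p = 0.0117), Sdhc (0.045) and Sdhd (0.00576), and the same 3 passed on the TPM scale. Their differences ran from -0.67 (Sdhd) to -0.37 (Sdha), with a median of -0.61. Sdha, the flavoprotein that oxidises succinate, measured 172, 144 and 157 FPKM in labelled PU.1 cKO and 213, 191 and 208 FPKM in labelled control, groups that did not overlap (difference -0.37 ± 0.16, adjusted p = 0.122). Sdhb, the iron-sulfur subunit, measured 161, 126 and 132 FPKM in labelled PU.1 cKO and 225, 166 and 280 FPKM in labelled control (-0.65 ± 0.23, adjusted p = 0.0718). Sdhc, a membrane anchor, measured 53.8, 41.1 and 46.1 FPKM in labelled PU.1 cKO and 61.8, 54.8 and 100 FPKM in labelled control (-0.57 ± 0.25, adjusted p = 0.126). Sdhd, the other membrane anchor, measured 134, 109 and 117 FPKM in labelled PU.1 cKO and 214, 128 and 258 FPKM in labelled control (-0.67 ± 0.27, adjusted p = 0.101). Labelled PU.1 cKO lay below labelled control for Sdhb and Sdhc, and Sdhd overlapped.

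In complex III, 5 of 8 subunits fell at 3 months, with a median difference of -1.34 over the 8. The 5 were the small subunits Uqcrq, Uqcrh, Uqcr10, Uqcr11 and Uqcrb. Uqcrq and Uqcrh were called in all 6 refits that each leave out 1 library, Uqcrb in 5, Uqcr10 in 4 and Uqcr11 in 3, all of the losses being without a labelled PU.1 cKO library. Uqcrq, a small subunit next to cytochrome b, measured 66.2, 51.4 and 76.2 FPKM in labelled PU.1 cKO and 231, 173 and 406 FPKM in labelled control. The groups were far apart (difference -1.97 ± 0.33, limma adjusted p = 0.00515). The 2 large core proteins Uqcrc1 and Uqcrc2 and the iron-sulfur protein Uqcrfs1 did not pass, at -0.82 ± 0.31, -0.48 ± 0.23 and -0.71 ± 0.29. Uqcrc1 measured 249, 174 and 185 FPKM in labelled PU.1 cKO and 379, 230 and 512 FPKM in labelled control (-0.82 ± 0.31, adjusted p = 0.0846). Uqcrc2 measured 61.4, 57.9 and 63.4 FPKM in labelled PU.1 cKO and 91.9, 61.2 and 110 FPKM in labelled control (-0.48 ± 0.23, adjusted p = 0.155). Uqcrfs1 measured 49.0, 43.1 and 41.7 FPKM in labelled PU.1 cKO and 73.4, 49.4 and 110 FPKM in labelled control (-0.71 ± 0.29, adjusted p = 0.0953). Labelled PU.1 cKO replicate 1 reached into the range of labelled control for Uqcrc1 and labelled PU.1 cKO replicates 1 and 3 did so for Uqcrc2, while Uqcrfs1 separated the groups.

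Complex IV, cytochrome c oxidase, had 13 of 14 tested genes lower at 3 months, with a median of -1.45. Cox4i1, its largest nuclear subunit, measured 198, 190 and 223 FPKM in labelled PU.1 cKO and 463, 440 and 747 FPKM in labelled control (difference -1.39 ± 0.24, adjusted p = 0.00639). Cox6a1, whose promoter with NRF1 letters in 2 places is shown above, measured 124, 136 and 143 FPKM in labelled PU.1 cKO and 355, 305 and 566 FPKM in labelled control (-1.55 ± 0.25, adjusted p = 0.00498). No library of one group reached the range of the other for either gene. Cox5a, a matrix-side subunit, measured 48.6, 44.4 and 60.0 FPKM in labelled PU.1 cKO and 154, 116 and 262 FPKM in labelled control (-1.70 ± 0.30, adjusted p = 0.00689). Cox5b, the zinc-binding subunit, measured 50.1, 46.9 and 42.2 FPKM in labelled PU.1 cKO and 106, 111 and 168 FPKM in labelled control (-1.42 ± 0.22, adjusted p = 0.00399). Cox6b1, on the intermembrane side, measured 128, 118 and 125 FPKM in labelled PU.1 cKO and 268, 266 and 458 FPKM in labelled control (-1.36 ± 0.24, adjusted p = 0.00692). These 3 also separated the groups. Cox8a measured 76.2, 87.0 and 98.4 FPKM in labelled PU.1 cKO and 176, 187 and 326 FPKM in labelled control (-1.34 ± 0.27, adjusted p = 0.0103). Cox7b measured 15.2, 17.1 and 17.6 FPKM in labelled PU.1 cKO and 44.5, 42.6 and 84.0 FPKM in labelled control (-1.65 ± 0.27, adjusted p = 0.00517). Ndufa4 measured 112, 99.5 and 107 FPKM in labelled PU.1 cKO and 235, 197 and 403 FPKM in labelled control (-1.32 ± 0.27, adjusted p = 0.012). The same held for these genes, of which Ndufa4 lost the call without labelled PU.1 cKO replicate 2. Cox7a1 is counted among the 13, but it met the mean of 1 FPKM only through labelled control, with 0.774, 0 and 0 FPKM in labelled PU.1 cKO and 3.56, 1.18 and 2.54 FPKM in labelled control. It was not called in 4 of the 6 refits that each leave out 1 library, those without labelled PU.1 cKO replicate 2 or 3 or labelled control replicate 1 or 3, and a filter of 5 FPKM drops it. The gene that did not pass was Cox7a2l, the supercomplex factor, at 60.0, 52.4 and 50.3 FPKM in labelled PU.1 cKO and 64.6, 55.4 and 94.5 FPKM in labelled control, which overlapped (-0.36 ± 0.23, adjusted p = 0.254). Its paralog Cox7a2 fell by 1.46 ± 0.32 on the log2 scale, a call lost without labelled PU.1 cKO replicate 1 or 2. Cox7a2 therefore made up 30.6%, 34.9% and 41.3% of the summed Cox7a1, Cox7a2 and Cox7a2l signal in labelled PU.1 cKO and 51.7%, 50.9% and 58.9% in labelled control.

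In complex V, 15 of 17 genes fell at 3 months, among them all 5 subunits of the catalytic F1 head. Atp5e, the smallest of these, measured 40.2, 43.6 and 42.9 FPKM in labelled PU.1 cKO and 108, 119 and 220 FPKM in labelled control (-1.72 ± 0.28, adjusted p = 0.00458). Atp5b, which holds the catalytic sites, measured 377, 353 and 387 FPKM in labelled PU.1 cKO and 915, 649 and 1219 FPKM in labelled control (-1.27 ± 0.26, adjusted p = 0.0108). Both genes separated the groups. Atp5a1, the other large subunit of the head, measured 186, 172 and 187 FPKM in labelled PU.1 cKO and 316, 259 and 442 FPKM in labelled control (-0.86 ± 0.23, adjusted p = 0.0272). Atp5c1, the central stalk, measured 126, 114 and 128 FPKM in labelled PU.1 cKO and 255, 177 and 326 FPKM in labelled control (-1.0 ± 0.24, adjusted p = 0.0208). Again the groups did not overlap. Atp5a1 and Atp5c1 each lost the call in 4 of the 6 refits, those without labelled PU.1 cKO replicate 1, 2 or 3 or labelled control replicate 1, with adjusted p-values up to 0.106 for Atp5a1 and 0.0859 for Atp5c1. Atp5b lost it without labelled PU.1 cKO replicate 2 (adjusted p = 0.0536). Atp5k, a membrane subunit, measured 16.2, 29 and 40.7 FPKM in labelled PU.1 cKO and 57.1, 80.2 and 197 FPKM in labelled control (-1.81 ± 0.50, adjusted p = 0.0313), and it lost the call without labelled PU.1 cKO replicate 1 (adjusted p = 0.0943), labelled PU.1 cKO replicate 2 (0.0838) or labelled control replicate 3 (0.0563).

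The genes with positive differences in complex V were those now named Dmac2 and Dmac2l. Atp5sl (Dmac2), an assembly factor of complex I, measured 14.2, 15.6 and 13.7 FPKM in labelled PU.1 cKO and 8.44, 7.63 and 9.16 FPKM in labelled control, without overlap (0.72 ± 0.16, adjusted p = 0.0155). It lost the call without labelled PU.1 cKO replicate 2 (adjusted p = 0.0821), labelled PU.1 cKO replicate 3 (0.053) or labelled control replicate 1 (0.055). Atp5s (Dmac2l) measured 8.0, 6.47 and 10.4 FPKM in labelled PU.1 cKO and 5.82, 4.90 and 7.95 FPKM in labelled control, and overlapped (0.37 ± 0.24).

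The size of the 3-month count rested in part on single libraries. Labelled control replicate 3 was the highest of the 6 libraries for 73 of the 78 genes. Without it 50 genes were called lower and the median was -0.93. The count was 36 without labelled PU.1 cKO replicate 1 and 25 without labelled PU.1 cKO replicate 2, with medians of -1.22 and -1.14. Over the 6 libraries left out in turn, between 25 and 73 genes were called lower and 0 or 1 higher, and 24 of the 55 were called lower in all 6 refits.

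Markers of other cells moved with the 3-month groups. Of 9 microglial markers, 8 were higher in labelled PU.1 cKO, with a summed 28397 to 32787 FPKM there and 8264 to 14935 FPKM in labelled control. Of 6 markers of border macrophages, 4 were lower, with 261 to 335 FPKM in labelled PU.1 cKO and 474 to 1528 FPKM in labelled control. Of 6 monocyte markers, 1 was lower (Fn1, -2.44 ± 0.40), with summed ranges of 7.39 to 41.7 FPKM in labelled PU.1 cKO and 51.0 to 1017 FPKM in labelled control. The 6 neutrophil markers, none of them passing, summed to 41.4 to 315 FPKM in labelled PU.1 cKO and 80.6 to 14058 FPKM in labelled control, the highest being labelled control replicate 1. Astrocyte markers summed to 63.1 to 71.4 FPKM in labelled PU.1 cKO and 15.4 to 31.2 FPKM in labelled control, but Slc1a3 alone gave most of this sum and was the only one of 4 tested to pass (2.36 ± 0.20). Gfap and Aldh1l1 lay lower in labelled PU.1 cKO without overlap and without passing (-0.72 ± 0.32 for Gfap and -0.83 ± 0.28 for Aldh1l1), and the median of the 4 was -0.32. Without labelled control replicate 1, 46 of 77 respiratory genes were called lower with a median of -1.26. The part of these cells in the other values was not tested.

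In the 4.5-month set the respiratory chain was higher in both groups with p25 than in CK. All 84 genes summed to 12617, 10988 and 11008 FPKM in the CK-p25 PU.1 cKO libraries, to 12273, 11635 and 8940 FPKM in CK-p25, and to 7001, 6289 and 7065 FPKM in CK. Every library with p25 lay above every CK library, and CK-p25 replicate 3 was the lowest of the 6. As a share of the summed FPKM this was 2.10%, 2.01% and 1.92% in the CK-p25 PU.1 cKO libraries, 2.0%, 2.03% and 1.38% in the CK-p25 libraries, and 1.4%, 1.32% and 1.43% in CK, so on this scale CK-p25 replicate 3 lay within CK.

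In CK-p25 against CK, 54 of the 79 genes tested rose, 0 fell and 25 did not pass, which is 68.4% higher where 17.6% of all 10894 genes tested were called higher and 13.7% lower. Groups did not overlap for 61 genes upward and 1 downward, against 24% and 22.5% of all genes. The median difference was 0.58, against 0.00 over all genes. With values rescaled to the same total in each library, as TPM, the median of all genes moved to -0.29, and 21 genes were called higher and 3 lower (Atp5f1, Atp5s and Atp5sl), where 9.82% of all genes were called higher and 34.3% lower. After quantile normalization 32 were called higher and 0 lower. By complex, the 21 higher on the TPM scale were 8 of complex I, 1 of II, 2 of III, 6 of IV and 4 of V. The 32 were 18 of complex I, 1 of II, 2 of III, 7 of IV and 4 of V. Of all calls in this comparison, 56.3% were higher, against 22.3% on the TPM scale and 45.6% after quantile normalization. The fit shares 1 spread over all 9 libraries. The median standard deviation of these genes was 0.23 in CK-p25, 0.12 in CK-p25 PU.1 cKO and 0.11 in CK (log2 scale). Fitted with only the libraries of CK-p25 and CK, 38 were called higher and 0 lower, where 14.2% and 9.39% of all genes were called. The count was 30 without CK replicate 2, 35 without CK-p25 replicate 1 and 66 without CK-p25 replicate 3. Without CK-p25 replicate 3 the median was 0.70, against 0.58 with it. Complex IV then had 15 genes called higher and complex V 14, and 1 gene, Atp5sl, was called lower.

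In CK-p25 PU.1 cKO against CK, 57 of 79 rose, 0 fell and 22 did not pass, or 72.2% higher where 17.8% of all genes were called higher and 13.3% lower. Groups did not overlap for 70 genes upward and 2 downward, against 29.4% and 29.1% of all genes. The median difference was 0.66. The TPM scale gave 41 higher and 2 lower (Atp5sl and Ndufa9), with the median of all genes at -0.20. Quantile normalization gave 41 higher and 0 lower. Fitted with only the libraries of these 2 groups, 63 were called higher and 0 lower, where 24.3% and 22% of all genes were called. Without CK-p25 replicate 3, which belongs to neither group, 64 were called higher and 1 lower. Of all calls, 57.2% were higher, against 30.7% on the TPM scale and 45.9% after quantile normalization. With each of the 9 libraries left out in turn, 42 of the 57 genes in CK-p25 PU.1 cKO and 30 of the 54 in CK-p25 were called in every refit. Both comparisons use the same 3 CK libraries, so they are not independent of each other.

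**Figure D2:**
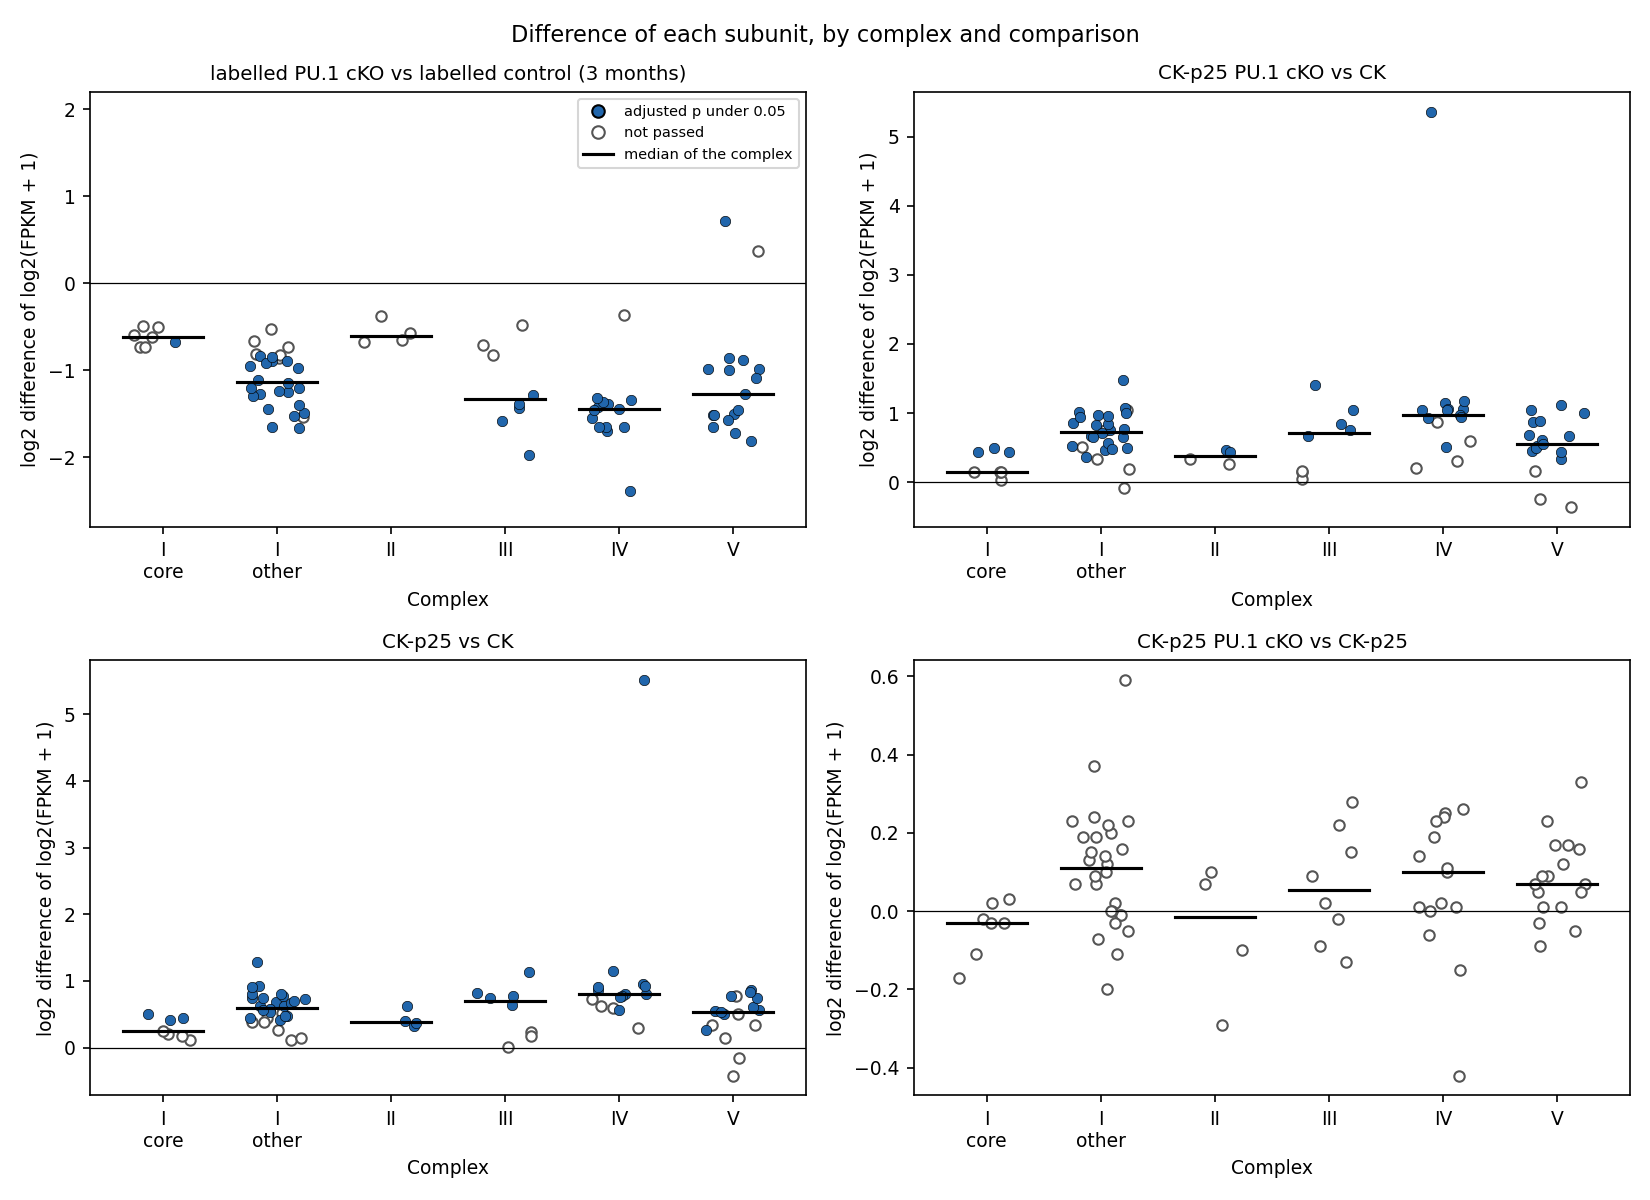
Log2 difference of each tested subunit (y axis, differences of log2(FPKM + 1); the scale differs between panels) by complex, with complex I parted into core and other subunits. Filled points passed an adjusted p of 0.05, open points did not, and bars are medians: at 3 months the bars of complexes III and IV lie at -1.34 and -1.45. In CK-p25 PU.1 cKO against CK-p25 every point is open.

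Complex I rose in 24 of 35 genes in CK-p25 and in 25 of 35 in CK-p25 PU.1 cKO. Ndufa1, a small membrane subunit encoded on the X chromosome, measured 475, 375 and 284 FPKM in the CK-p25 PU.1 cKO libraries, 415, 407 and 200 FPKM in CK-p25, and 143, 117 and 136 FPKM in CK. The libraries with p25 spread widely but did not reach down to CK. The difference from CK was 1.48 ± 0.29 in CK-p25 PU.1 cKO (adjusted p = 0.00625) and 1.29 ± 0.29 in CK-p25 (adjusted p = 0.0119), and 1.63 in CK-p25 without its replicate 3.

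In each comparison with CK, 3 of the 7 core subunits of complex I rose, namely Ndufv1, which holds the flavin, Ndufs3, of the arm that reaches into the matrix, and Ndufs7, which holds the iron-sulfur cluster next to the ubiquinone site. The median difference of the 7 was 0.15 in CK-p25 PU.1 cKO and 0.25 in CK-p25, and that of the other subunits 0.73 in CK-p25 PU.1 cKO and 0.60 in CK-p25. Ndufv1 measured 42.5, 43.6 and 40.2 FPKM in the CK-p25 PU.1 cKO libraries, 39.2, 38.3 and 47.0 FPKM in CK-p25, and 31.7, 29.3 and 31.4 FPKM in CK (0.44 ± 0.09 for CK-p25 PU.1 cKO and 0.41 ± 0.09 for CK-p25). Ndufs3 measured 77.8, 71.1 and 65.8 FPKM in the CK-p25 PU.1 cKO libraries, 70.9, 64.1 and 83.4 FPKM in CK-p25, and 51.4, 51.0 and 56.1 FPKM in CK (0.43 ± 0.11 for CK-p25 PU.1 cKO and 0.45 ± 0.11 for CK-p25). Ndufs7 measured 124, 116 and 113 FPKM in the CK-p25 PU.1 cKO libraries, 120, 117 and 122 FPKM in CK-p25, and 81.6, 77.1 and 92.2 FPKM in CK (0.49 ± 0.09 for CK-p25 PU.1 cKO and 0.51 ± 0.09 for CK-p25). For these genes every library with p25 lay above CK. The call of Ndufs3 was lost in 4 of the 9 refits in CK-p25 PU.1 cKO and in 2 of 9 in CK-p25, and that of Ndufv1 in CK-p25 without CK replicate 2. Ndufv2 measured 59.0, 48.8 and 45.8 FPKM in the CK-p25 PU.1 cKO libraries, 53.7, 48.5 and 53.9 FPKM in CK-p25, and 46.5, 45.0 and 45.9 FPKM in CK (0.15 ± 0.10 for CK-p25 PU.1 cKO and 0.18 ± 0.10 for CK-p25). Ndufs1 measured 32.5, 29.4 and 26.4 FPKM in the CK-p25 PU.1 cKO libraries, 29.3, 30.2 and 41.3 FPKM in CK-p25, and 28.5, 29.3 and 28.7 FPKM in CK (0.03 ± 0.14 for CK-p25 PU.1 cKO and 0.20 ± 0.14 for CK-p25). Ndufs8 measured 129, 113 and 120 FPKM in the CK-p25 PU.1 cKO libraries, 132, 120 and 140 FPKM in CK-p25, and 111, 103 and 113 FPKM in CK (0.15 ± 0.09 for CK-p25 PU.1 cKO and 0.25 ± 0.09 for CK-p25). None of these 3 passed, and CK-p25 replicate 3 was the highest library for each of Ndufs1 and Ndufs8. On the TPM scale the differences of Ndufv2, Ndufs1 and Ndufs8 from CK were negative in both comparisons, from -0.20 to -0.06. As a share of the summed FPKM, the 7 core subunits averaged 0.0853% in CK-p25, 0.0853% in CK and 0.0884% in CK-p25 PU.1 cKO.

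Complex II rose in 2 of 4 genes in CK-p25 PU.1 cKO and in 4 of 4 in CK-p25. The CK-p25 count was 1 after quantile normalization and on the TPM scale. It was 2 with no filter and with only the compared groups fitted. Sdhb, the iron-sulfur subunit, measured 145, 125 and 130 FPKM in the CK-p25 PU.1 cKO libraries, 155, 139 and 198 FPKM in CK-p25, and 107, 103 and 104 FPKM in CK. All libraries with p25 were above CK, while the groups with p25 overlapped. The difference from CK was 0.34 ± 0.13 in CK-p25 PU.1 cKO (adjusted p = 0.0779) and 0.63 ± 0.13 in CK-p25 (adjusted p = 0.00734). Without CK-p25 replicate 3, the library with 198 FPKM, the difference in CK-p25 was 0.49 (adjusted p = 0.00367). Sdha measured 181, 176 and 165 FPKM in the CK-p25 PU.1 cKO libraries, 169, 169 and 158 FPKM in CK-p25, and 122, 127 and 126 FPKM in CK (0.47 ± 0.07 for CK-p25 PU.1 cKO and 0.40 ± 0.07 for CK-p25). Sdhc measured 77.6, 70.8 and 68.8 FPKM in the CK-p25 PU.1 cKO libraries, 73.8, 71.2 and 58.1 FPKM in CK-p25, and 54.1, 49.6 and 56.3 FPKM in CK (0.43 ± 0.11 for CK-p25 PU.1 cKO and 0.33 ± 0.11 for CK-p25). Sdhd measured 110, 99.5 and 103 FPKM in the CK-p25 PU.1 cKO libraries, 109, 98.1 and 130 FPKM in CK-p25, and 92.4, 82.8 and 85.0 FPKM in CK (0.26 ± 0.11 for CK-p25 PU.1 cKO and 0.37 ± 0.11 for CK-p25). Each of the 3 was above CK in all 6 libraries with p25. The CK-p25 calls of Sdhc and Sdhd were lost in most refits without 1 library, with adjusted p-values up to 0.152 and 0.121, both without CK replicate 2.

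In complex III, the same 5 small subunits that fell at 3 months rose in each comparison with CK, Uqcr11 losing the call in 4 of the 9 refits in CK-p25 PU.1 cKO and in 6 in CK-p25, and Uqcr10 in 5 in CK-p25. Uqcrh, the acidic hinge subunit that helps cytochrome c to dock, measured 215, 170 and 192 FPKM in the CK-p25 PU.1 cKO libraries, 199, 170 and 116 FPKM in CK-p25, and 72.1, 62.6 and 81.3 FPKM in CK. The groups with p25 lay above CK throughout (1.41 ± 0.20, adjusted p = 0.00121, for CK-p25 PU.1 cKO against CK, and 1.13 ± 0.20, adjusted p = 0.00354, for CK-p25 against CK). Uqcrfs1 measured 62.0, 54.5 and 53.8 FPKM in the CK-p25 PU.1 cKO libraries, 52.7, 56.3 and 44.8 FPKM in CK-p25, and 53.8, 48.2 and 50.2 FPKM in CK, and did not pass (0.16 ± 0.11 for CK-p25 PU.1 cKO and 0.01 ± 0.11 for CK-p25). Uqcrc1 measured 146, 134 and 134 FPKM in the CK-p25 PU.1 cKO libraries, 141, 129 and 174 FPKM in CK-p25, and 127, 120 and 126 FPKM in CK (0.15 ± 0.11 for CK-p25 PU.1 cKO and 0.24 ± 0.11 for CK-p25). Uqcrc2 measured 48.6, 40.8 and 42.9 FPKM in the CK-p25 PU.1 cKO libraries, 43.3, 43.2 and 59.6 FPKM in CK-p25, and 42.2, 41.6 and 43.9 FPKM in CK (0.05 ± 0.13 for CK-p25 PU.1 cKO and 0.17 ± 0.13 for CK-p25). Neither passed, and CK-p25 replicate 3 was the highest library for both.

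Complex IV had 11 of 15 genes higher in each comparison with CK, with medians of 0.97 in CK-p25 PU.1 cKO and 0.80 in CK-p25. Cox4i1 measured 528, 462 and 474 FPKM in the CK-p25 PU.1 cKO libraries, 529, 504 and 439 FPKM in CK-p25, and 216, 210 and 236 FPKM in CK. Its spread within groups was small beside the gap to CK (1.14 ± 0.10, adjusted p = 0.000117, for CK-p25 PU.1 cKO against CK, and 1.15 ± 0.10, adjusted p = 0.000121, for CK-p25 against CK). Cox5a measured 102, 90.4 and 94.7 FPKM in the CK-p25 PU.1 cKO libraries, 102, 92.6 and 104 FPKM in CK-p25, and 68.8, 62.2 and 69.5 FPKM in CK (0.51 ± 0.09 for CK-p25 PU.1 cKO and 0.57 ± 0.09 for CK-p25). Cox5b measured 194, 185 and 184 FPKM in the CK-p25 PU.1 cKO libraries, 191, 185 and 108 FPKM in CK-p25, and 83, 88.8 and 96.5 FPKM in CK (1.06 ± 0.20 for CK-p25 PU.1 cKO and 0.80 ± 0.20 for CK-p25). Cox6b1 measured 448, 376 and 378 FPKM in the CK-p25 PU.1 cKO libraries, 429, 415 and 291 FPKM in CK-p25, and 197, 175 and 202 FPKM in CK (1.06 ± 0.16 for CK-p25 PU.1 cKO and 0.96 ± 0.16 for CK-p25). All libraries with p25 were above CK for these genes, which passed in both comparisons, although Cox5b lost the CK-p25 call in 4 of the 9 refits. Cox7b measured 65.2, 54.2 and 57.4 FPKM in the CK-p25 PU.1 cKO libraries, 58.6, 59.3 and 38.8 FPKM in CK-p25, and 31.6, 26.1 and 32.6 FPKM in CK (0.95 ± 0.17 for CK-p25 PU.1 cKO and 0.76 ± 0.17 for CK-p25). Cox7a2 measured 104, 89.1 and 88.2 FPKM in the CK-p25 PU.1 cKO libraries, 99.6, 96.9 and 67.2 FPKM in CK-p25, and 51.3, 41.9 and 48.7 FPKM in CK (0.97 ± 0.16 for CK-p25 PU.1 cKO and 0.86 ± 0.16 for CK-p25). These followed the same order, with CK-p25 replicate 3 the lowest library with p25. Cox8a, a small membrane subunit, measured 378, 348 and 389 FPKM in the CK-p25 PU.1 cKO libraries, 385, 400 and 204 FPKM in CK-p25, and 154, 159 and 183 FPKM in CK. CK-p25 replicate 3 came close to CK for this gene (1.17 ± 0.24, adjusted p = 0.00676, for CK-p25 PU.1 cKO against CK, and 0.93 ± 0.24, adjusted p = 0.0184, for CK-p25 against CK). The CK-p25 call of Cox8a was lost without CK replicate 1 (adjusted p = 0.0621), CK replicate 2 (0.06), CK-p25 replicate 1 (0.0575) or CK-p25 replicate 2 (0.0515). Cox7a2l, which had not passed at 3 months, rose here beside Cox7a2 (0.93 ± 0.14 for CK-p25 PU.1 cKO and 0.91 ± 0.14 for CK-p25), and Ndufa4 did not pass (0.31 ± 0.17 for CK-p25 PU.1 cKO and 0.30 ± 0.17 for CK-p25).

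Cox6a2, the form of subunit 6A known from heart and skeletal muscle, had the largest difference from CK among the 79 genes in both comparisons. It measured 140, 122 and 91.1 FPKM in the CK-p25 PU.1 cKO libraries, 171, 156 and 78.7 FPKM in CK-p25, and 2.13, 1.42 and 2.03 FPKM in CK. Every library with p25 was far above CK. The log2 difference from CK was 5.36 ± 0.29 in CK-p25 PU.1 cKO (95% interval 4.69 to 6.03, limma adjusted p = 1.53e-05) and 5.51 ± 0.29 in CK-p25 (4.83 to 6.18, adjusted p = 1.45e-05), and 5.85 in CK-p25 without replicate 3. Cox6a2 passed in every refit of both comparisons. Its ubiquitous paralog Cox6a1 measured 498, 460 and 461 FPKM in the CK-p25 PU.1 cKO libraries, 506, 503 and 246 FPKM in CK-p25, and 217, 223 and 251 FPKM in CK, where CK-p25 replicate 3 lay within CK (1.04 ± 0.25, adjusted p = 0.0155, for CK-p25 PU.1 cKO against CK, and 0.78 ± 0.25, adjusted p = 0.0469, for CK-p25 against CK). The Cox6a1 call in CK-p25 was lost in each refit without 1 library other than CK-p25 replicate 3. The one in CK-p25 PU.1 cKO failed in 3 of the 9 refits, with an adjusted p of 0.0529 when replicate 1 of that group was left out, 0.053 when replicate 1 of CK was, and 0.0516 when replicate 2 of CK was.

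Cox6a2 made up 21.9%, 21.0% and 16.5% of the summed Cox6a1 and Cox6a2 FPKM in the CK-p25 PU.1 cKO libraries, 25.3%, 23.7% and 24.3% in the CK-p25 libraries, and 0.970%, 0.632% and 0.803% in CK. FPKM is per length, so the 2 genes can be set against each other within a library. The share in CK-p25 replicate 3 lay between those of the other CK-p25 libraries, although its levels of both genes were lower. The 6 other muscle genes checked summed to at most 0.913 FPKM in any 4.5-month library. At 3 months Cox6a2 measured 2.22, 0.748 and 0.559 FPKM in labelled PU.1 cKO and 10.5, 14.0 and 6.39 FPKM in labelled control, which did not overlap (-2.39 ± 0.37, adjusted p = 0.00402), and its share was 1.76%, 0.545% and 0.391% in labelled PU.1 cKO and 2.87%, 4.39% and 1.12% in labelled control.

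**Figure D3:**
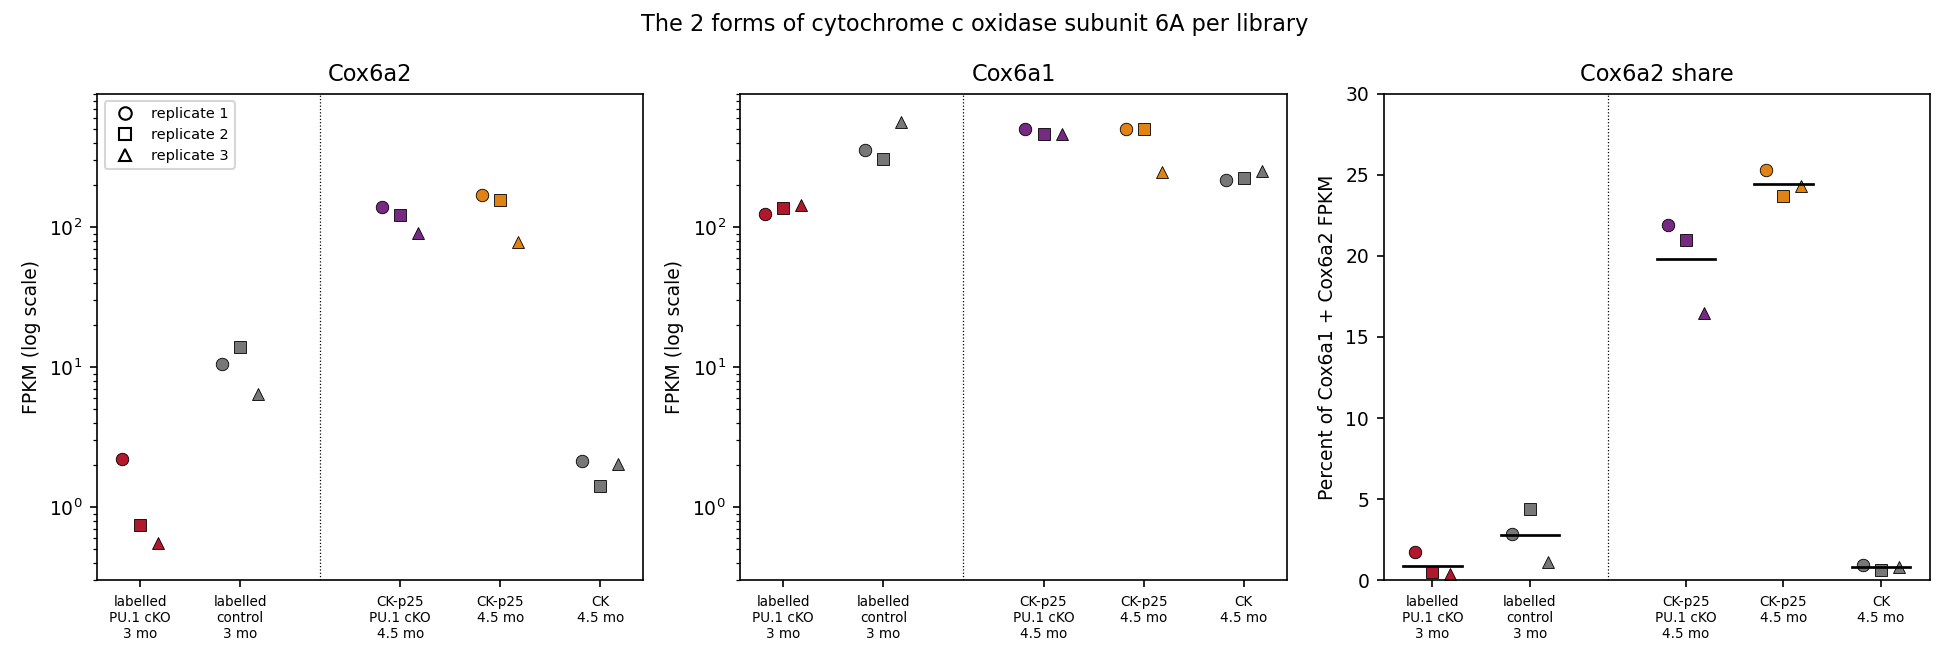
Cox6a2 and Cox6a1 per library (left and middle, FPKM on a log axis) and the share of Cox6a2 in their sum (right, percent, bars at the mean of 3 libraries). Cox6a2 lay between 78.7 and 171 FPKM in the 6 libraries with p25 and at or below 2.13 FPKM in CK.

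In complex V, 14 of 17 genes rose in CK-p25 PU.1 cKO and 10 of 17 in CK-p25. Atp5b measured 399, 392 and 402 FPKM in the CK-p25 PU.1 cKO libraries, 398, 387 and 431 FPKM in CK-p25, and 277, 275 and 278 FPKM in CK. The 3 groups were tight, and those with p25 lay clear of CK (0.52 ± 0.07, adjusted p = 0.000969, for CK-p25 PU.1 cKO against CK, and 0.55 ± 0.07, adjusted p = 0.00078, for CK-p25 against CK). Atp5a1 measured 198, 190 and 178 FPKM in the CK-p25 PU.1 cKO libraries, 183, 178 and 175 FPKM in CK-p25, and 155, 145 and 147 FPKM in CK (0.34 ± 0.07 for CK-p25 PU.1 cKO and 0.26 ± 0.07 for CK-p25). Atp5c1 measured 171, 148 and 164 FPKM in the CK-p25 PU.1 cKO libraries, 164, 161 and 175 FPKM in CK-p25, and 119, 114 and 120 FPKM in CK (0.45 ± 0.08 for CK-p25 PU.1 cKO and 0.50 ± 0.08 for CK-p25). Both passed in each comparison and separated the libraries with p25 from CK, but the CK-p25 difference of Atp5a1 was -0.08 after quantile normalization and -0.06 on the TPM scale, and its call there was lost in 4 of the 9 refits that each leave out 1 library. Atp5k measured 195, 152 and 168 FPKM in the CK-p25 PU.1 cKO libraries, 180, 187 and 74.3 FPKM in CK-p25, and 76.5, 67.5 and 93.6 FPKM in CK (1.11 ± 0.33 for CK-p25 PU.1 cKO and 0.78 ± 0.33 for CK-p25). CK-p25 replicate 3 lay within CK for Atp5k, which passed in CK-p25 PU.1 cKO, where 6 of the 9 refits lost the call, and not in CK-p25. The genes of the membrane ring, Atp5g1 to Atp5g3, encode the same mature protein. All 3 passed in CK-p25 PU.1 cKO (0.61, 0.67 and 0.43) and only Atp5g1 in CK-p25 (0.56 ± 0.18, adjusted p = 0.049), a call that held only without CK replicate 1 (adjusted p = 0.04) or without CK-p25 replicate 3 (0.0113) among the 9 refits that each leave out 1 library. In CK-p25 PU.1 cKO, Atp5g1 lost the call in 5 of the 9 such refits, with adjusted p-values up to 0.123, and Atp5g2 and Atp5g3 in 6 of 9 each. All 3 ring genes were also called lower at 3 months, at -1.50, -0.99 and -1.46. Atp5g3 kept that call in all 6 refits. Atp5g1 lost it without labelled PU.1 cKO replicate 2 or 3, and Atp5g2 without labelled PU.1 cKO replicate 1 or 2.

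Between CK-p25 PU.1 cKO and CK-p25, 0 of 79 genes were called by limma in either direction, and 0% of all 10894 genes tested were called. At an unadjusted p below 0.05 there were 0 of the 79 and 671 of all genes. In every alternative tried, limma also called 0 of these genes. The median difference was 0.07, with 55 genes positive and 24 negative. Without CK-p25 replicate 3 the median was -0.02, with 26 genes positive and 53 negative, so its sign rested on that library. No gene of the chain separated the 2 groups, where 4.82% of all genes did so upward and 4.56% downward. The smallest p belonged to Sdhb (-0.29 ± 0.13, 95% interval -0.58 to 0.01), Ndufa5 (0.23 ± 0.14, -0.08 to 0.55) and Ndufb9 (0.16 ± 0.11, -0.08 to 0.40), each with an adjusted p of 0.745. For Cox6a2 the difference was -0.15 ± 0.29. These intervals leave room for differences of the size shown, so the data do not establish that the groups are alike.

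CK-p25 replicate 3 differed from CK-p25 replicates 1 and 2 by complex. Of the 79 genes, 33 lay lower in it by more than 0.5 on the log2 scale (41.8%, against 19.9% of all genes tested), and the median gap was -0.34 against 0.00 over all genes. The share was 12 of 15 in complex IV, 4 of 8 in complex III, 7 of 17 in complex V and 10 of 28 among the other subunits of complex I, but 0 of 7 core subunits of complex I and 0 of 4 of complex II. Ndufa3 and Cox7a1, chosen after their values were seen, had the largest gaps. Ndufa3 stood at 133 FPKM in replicate 3 against 515 and 476 FPKM in replicates 1 and 2. Cox7a1 was listed at 0 in replicate 3, against 2.69 and 3.52 FPKM.

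**Figure D4:**
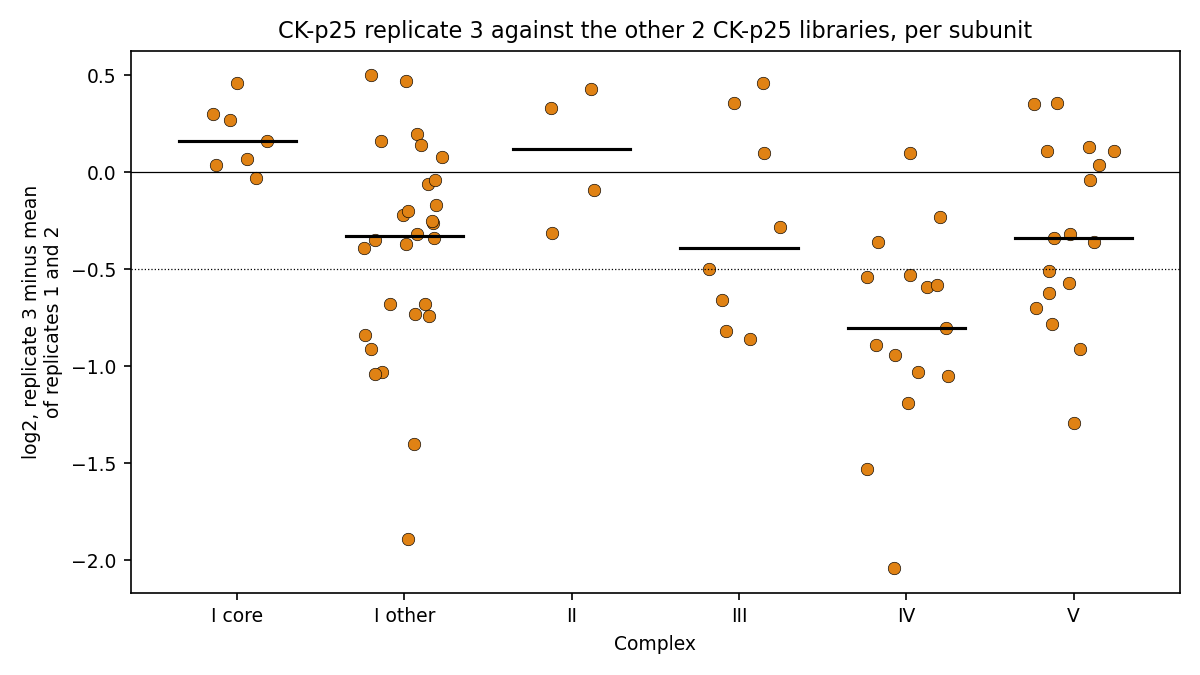
Log2 gap between CK-p25 replicate 3 and the mean of CK-p25 replicates 1 and 2 for each subunit (y axis), by complex (x axis); bars are medians and the dotted line marks -0.5. The bar of complex IV lies at -0.80 and that of the core subunits of complex I at 0.16.

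Markers of other cells also moved at 4.5 months. The summed microglial markers were 15526 to 17498 FPKM in the CK-p25 PU.1 cKO libraries, 16973 to 18803 FPKM in CK-p25 and 25838 to 28214 FPKM in CK, with 6 of 9 lower in CK-p25 PU.1 cKO and 4 of 9 lower and 1 higher (Aif1) in CK-p25. Astrocyte markers summed to 90.0 to 185 FPKM in the CK-p25 PU.1 cKO libraries, 84.9 to 298 FPKM in CK-p25 and 47.2 to 66.1 FPKM in CK. Of the 6 astrocyte markers tested, 2 were called higher in CK-p25 PU.1 cKO and 1 in CK-p25. The median differences were 0.56 in CK-p25 PU.1 cKO and 0.64 in CK-p25, while the largest single ones reached 4.17 and 4.02. Neuron markers stayed between 1.51 and 30.5 FPKM in all 9 libraries. Monocyte markers summed to 35.1 to 57.4 FPKM in the CK-p25 PU.1 cKO libraries, 17.4 to 53.7 FPKM in CK-p25 and 3.87 to 18.6 FPKM in CK, with Fn1 higher in both comparisons (3.63 ± 0.61 for CK-p25 PU.1 cKO and 2.17 ± 0.61 for CK-p25). Neutrophil markers reached 782 FPKM in CK-p25 replicate 2 and at most 1.77 FPKM in the other CK-p25 libraries. The part of these cells in the respiratory chain values was not tested.

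Genes around the chain were read from lists. Of 6 further subunits and partners tested outside the name rule, 5 fell at 3 months, 3 rose in CK-p25 PU.1 cKO and 4 rose in CK-p25. That is 83.3% lower at 3 months, where 17.8% of all genes were called lower. The share higher was 50% in CK-p25 PU.1 cKO and 66.7% in CK-p25, where 17.8% and 17.6% of all genes were. Among the 6, cytochrome c (Cycs) differed by -1.4 ± 0.37 at 3 months and by 0.40 ± 0.08 in CK-p25. In CK-p25 PU.1 cKO it differed by 0.25 ± 0.08 and did not pass. Of 77 genes of the mitochondrial ribosome, which translates the subunits encoded in mitochondria, 34 fell and 0 rose at 3 months. In CK-p25 PU.1 cKO 21 rose and 2 fell, and in CK-p25 21 rose and 5 fell, with medians of 0.14 and 0.18. Of 16 genes of the tricarboxylic acid cycle, 9 fell at 3 months, and 4 rose in CK-p25 PU.1 cKO and 3 in CK-p25. That is 56.2% lower at 3 months, where 17.8% of all genes were called lower, 25% higher in CK-p25 PU.1 cKO, where 17.8% were called higher, and 18.8% higher in CK-p25, about the 17.6% of all genes. The ribosomal list had 44.2% lower at 3 months and 27.3% higher in each comparison with CK.

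Assembly factors were read complex by complex. Of 13 for complex I, 1 fell at 3 months (Ndufaf2, -1.62 ± 0.26), 1 fell in CK-p25 PU.1 cKO (Ndufaf7, -0.49 ± 0.13) and 1 rose in CK-p25 (Nubpl, 0.41 ± 0.11). Each is 7.69% of the list, below the respective 17.8% lower, 13.3% lower and 17.6% higher of all genes. Of 20 for complex IV, 4 fell at 3 months (20%, against 17.8% of all genes), and 6 rose in CK-p25 PU.1 cKO, or 30% where 17.8% of all genes did, and 5 in CK-p25, or 25% where 17.6% did, with the copper chaperone Cox17 in all 3 (-1.10 ± 0.29 at 3 months, 0.95 ± 0.18 for CK-p25 PU.1 cKO and 0.70 ± 0.18 for CK-p25). Of 6 for complexes II and III, 1 fell at 3 months and 1 rose in CK-p25 PU.1 cKO, both being Uqcc2 (-1.80 ± 0.30 at 3 months and 0.84 ± 0.21 for CK-p25 PU.1 cKO), and 0 passed in CK-p25. The share of 16.7% lower at 3 months and 16.7% higher in CK-p25 PU.1 cKO was about the 17.8% of all genes in each case. None of 3 for complex V passed in any of these comparisons. Of 11 genes of ubiquinone synthesis, 4 fell at 3 months and 2 rose in each comparison with CK, Coq2 and Coq7. That is 36.4% lower at 3 months, where 17.8% of all genes were called lower. The 18.2% higher in each comparison with CK was about the share of all genes, 17.8% in CK-p25 PU.1 cKO and 17.6% in CK-p25. The hydroxylase Coq7 stood at -1.80 ± 0.32 at 3 months, 0.89 ± 0.11 for CK-p25 PU.1 cKO and 1.24 ± 0.11 for CK-p25.

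Regulators of mitochondrial biogenesis moved in both directions. Of 10 tested at 3 months, 2 rose (Pprc1, 0.68 ± 0.17, and Esrra, 0.62 ± 0.18) and 1 fell (Tfb1m, -0.73 ± 0.20). Of 11 tested at 4.5 months, 1 rose (Ppargc1b, 0.71 ± 0.21) and 2 fell (Nrf1, -0.53 ± 0.16, and Gabpb1, -0.45 ± 0.11) in CK-p25 PU.1 cKO, and 1 fell in CK-p25 (Gabpb1, -0.38 ± 0.11). These are 20% higher and 10% lower at 3 months, where 12.4% and 17.8% of all genes were called. In CK-p25 PU.1 cKO they are 9.09% higher and 18.2% lower, where 17.8% and 13.3% of all genes were called. At 3 months and in CK-p25 PU.1 cKO, about as large a share thus passed as over all genes. In CK-p25 the share was smaller, with 0% higher and 9.09% lower, where 17.6% and 13.7% of all genes were called. Nrf1 and Gabpb1 encode a factor and a partner of a factor whose letters were counted in the promoters above.

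Set side by side, 42 genes were both called lower at 3 months and called higher in CK-p25 against CK, which is 42 of the 55 called at 3 months and 42 of the 54 called in CK-p25. Most genes of the chain were called in each set, so a large overlap follows from these counts alone: 76.4% of the genes called lower at 3 months were called higher in CK-p25, against 52.2% of those that were not. Over all 10293 genes tested in both sets, 753 were called both ways, or 43.9% of the 1715 called lower at 3 months and 41% of the 1835 called higher in CK-p25. Of all genes not called lower at 3 months, 12.6% were called higher in CK-p25, so the overlap was not particular to the chain. Across the 78 genes tested in both sets the differences had a Spearman correlation of -0.64, a description over genes, which are not independent replicates. The 2 sets share no library, but the sign at 3 months depends on which label is right.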

How the data were processed

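RNA from sorted hippocampal microglia was sequenced in 15 libraries; 4 ChIP samples of the series are not analysed here. Per the labels' protocols, libraries were made with SMART-Seq v4 and Nextera XT, which do not mark strand, so reads of a gene and of one antisense to it cannot be told apart. The authors deposited FPKM per gene in a table for each age; Bowtie, TopHat, Cufflinks 2.0.0 and the mm9 build are named per the submitters' processing notes. The depth is not given: the values hold no read counts, and the steps between low values put the worth of 1 read within 0.763 to 1.01 of the first library at 3 months and 0.893 to 1.01 at 4.5 months, with CK-p25 replicate 3 not usable. These are rough values, since few genes of small RNAs stood at the steps. They were 6 of 53 in labelled control replicate 3, 3 of 59 in CK-p25 replicate 2 and at most 18 of 74, in CK replicate 3.

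Each table was fitted on its own with limma 3.58.1 (R 4.3.3; trend, two-sided, Benjamini-Hochberg over all genes tested, threshold 0.05) on log2(FPKM + 1), keeping genes that averaged 1 FPKM or more. The 4.5-month fit held all 9 libraries. Differences understate the change of low genes, since 1 was added. Sums and shares were computed with Python 3.11.15 and pandas 2.3.3. Genes given in full were, per comparison, the 4 largest rises and falls past the threshold without overlap (or the 3 with the smallest p), the isoform sets and the core subunits. Single values of some genes that these rules name are not reported here. The genes and lists were chosen with earlier results of these data known. The fits were tested on simulated data. Alternatives were pseudocounts of 0.1 and 5, no filter and a filter of 5 FPKM, quantile normalization, median centring, the TPM scale, limma without trend or with robust estimation, fits of the compared groups alone, a replicate block and each library left out; a fit that drops genes listed at 0 in some library despite reaching 100 FPKM elsewhere was added after seeing the data.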

Additional observations from a re-analysis of the deposited data

How the results depend on the processing

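The count of genes called lower at 3 months ranged from 25 to 73 and that of genes called higher from 0 to 1 when each library was left out in turn. In CK-p25 against CK, leaving out libraries gave 30 to 66 higher and 0 to 1 lower, and in CK-p25 PU.1 cKO against CK 42 to 64 higher and 0 to 1 lower. Quantile normalization gave 32 higher in CK-p25, and the TPM scale 21 higher and 3 lower in CK-p25 and 2 lower in CK-p25 PU.1 cKO, the median of all genes having moved as given above. The cause of these changes was not tested.

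Small differences changed sign. Under quantile normalization those in CK-p25 were -0.03 for Uqcrc1, -0.14 for Uqcrfs1, -0.08 for Atp5a1 and -0.09 for Ndufa4, and those in CK-p25 PU.1 cKO -0.06 for Ndufs1, -0.06 for Ndufs8, -0.09 for Uqcrc1, -0.07 for Uqcrc2 and -0.07 for Ndufa4. Median centring gave -0.01 for Uqcrfs1 in CK-p25 and -0.01 for Ndufs1 in CK-p25 PU.1 cKO. On the TPM scale, CK-p25 gave -0.14 for Ndufv2, -0.12 for Ndufs1, -0.06 for Ndufs8, -0.08 for Uqcrc1, -0.14 for Uqcrc2, -0.31 for Uqcrfs1, -0.06 for Atp5a1 and -0.02 for Ndufa4. On that scale CK-p25 PU.1 cKO gave -0.07 for Ndufv2, -0.20 for Ndufs1, -0.08 for Ndufs8, -0.07 for Uqcrc1, -0.18 for Uqcrc2 and -0.06 for Uqcrfs1. With 1 library left out, CK-p25 PU.1 cKO ranged from -0.05 to 0.1 for Ndufs1 and from -0.02 to 0.1 for Uqcrc2, CK-p25 from -0.06 to 0.1 for Uqcrfs1, and Cox6a2 between the groups with p25 from -0.49 to 0.06.

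Deviations of same-numbered libraries from their group means correlated at 0.17, 0.16 and -0.05 at 3 months and at -0.02 to 0.13 at 4.5 months. Libraries with different numbers were not set against each other, so these values do not settle whether replicate numbers pair the libraries. With the replicate number as a block, 57 genes were called lower at 3 months, 52 higher in CK-p25 and 56 higher in CK-p25 PU.1 cKO. The number of 3 libraries a group and the unknown depth limit all of these values.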
